A study of Mus musculus with 4 samples.

Results

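Signals of 10 genes of intestinal drug handling were followed over 4 expression arrays: the cytochrome P450 genes Cyp3a11, Cyp3a13, Cyp3a25, Cyp2b10, Cyp2c55 and Cyp1a1, the efflux pump genes Abcb1a, Abcb1b and Abcg2, and the drug-sensing receptor gene Nr1i2. They are 10 of 18193 genes with a probe set of their own on the arrays, and they had 15 of the 34945 probe sets that carry 1 gene symbol. The genes were picked by name with earlier results of these arrays in view, so all of their values are given as a description. The samples are mouse intestinal crypt cells plated on fibronectin, in 4 groups of 1 array each: cells given interleukin-17A (IL-17A) plus fibroblast growth factor 2 (FGF2), cells given IL-17A alone at 50 ng/ml, cells given FGF2 alone at 5 ng/ml, and untreated cells (UN). The stimulation lasted 6 h, all groups shared the same medium with serum and insulin, and the labels do not restate the doses for the combination. Strain, age and sex of the mice, and the length of culture, were not given in the sources used here. The series has no replicates, so no difference below has a replicate check or a p-value.

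Cytochromes P450 are membrane-bound haem enzymes that oxidise drugs, food compounds and steroids, and in the gut wall they act on swallowed substances before these reach the liver. The nuclear receptor PXR, encoded by Nr1i2, binds foreign compounds and bile acids and switches on Cyp3a, Cyp2b and Cyp2c genes, while the aryl hydrocarbon receptor (AhR) does so for Cyp1a1. The pumps encoded by Abcb1a, Abcb1b and Abcg2 sit on the apical membrane of enterocytes and return compounds to the gut lumen. In mice P-glycoprotein is made from the 2 genes Abcb1a and Abcb1b.

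Each value is a signal of a probe set, a group of short oligonucleotides read as a unit, so the level of 1 gene cannot be set against that of another. A signal under the floor, set at the median of all signals (89.8, or 6.49 on the log2 scale), was raised to it, and a gene over the floor on at least 1 array is called measured. The arrays were alike in RNA quality, with 3′ to 5′ signal ratios of 1.18 to 1.25 for Actb and 0.82 to 0.87 for Gapdh. Of the 10 genes, 8 were measured and 6 were over the floor on every array. As a yardstick of error, the departure of the 4 arrays from additivity over 10902 genes corresponds to a log2 ratio SD of 0.30 in the dimmest genes (average below 8 on the log2 scale), 0.21 up to 10, 0.13 up to 12 and 0.094 in the brightest. True cooperation of the factors is part of that spread.

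The sequences just upstream of the genes are shown for Cyp3a11, Cyp3a13 and Cyp1a1, the P450 genes over the floor on every array, on which the results below turn most. They run from 250 bases before to 50 after the transcription start in RefSeq (GRCm38.p6). The Cyp3a11 window is chr5:145879805-145880104 on the minus strand, that of Cyp3a13 chr5:137921570-137921869 on the minus strand and that of Cyp1a1 chr9:57697363-57697662 on the plus strand. Capitals mark matches, on either strand, to 4 motifs. AGGTCA is a half-site of nuclear receptors, and CAAAGTCCA a core of the enterocyte and liver factor HNF4. The core bound by AhR with its partner Arnt is GCGTG. The fourth motif, TATAAA, is a TATA box core.
Cyp3a11: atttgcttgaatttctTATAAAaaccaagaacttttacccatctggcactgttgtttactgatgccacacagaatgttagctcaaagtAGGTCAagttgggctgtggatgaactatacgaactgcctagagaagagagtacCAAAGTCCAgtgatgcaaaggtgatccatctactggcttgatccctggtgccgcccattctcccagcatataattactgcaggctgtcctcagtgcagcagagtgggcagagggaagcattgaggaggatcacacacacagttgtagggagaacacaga
Cyp3a13: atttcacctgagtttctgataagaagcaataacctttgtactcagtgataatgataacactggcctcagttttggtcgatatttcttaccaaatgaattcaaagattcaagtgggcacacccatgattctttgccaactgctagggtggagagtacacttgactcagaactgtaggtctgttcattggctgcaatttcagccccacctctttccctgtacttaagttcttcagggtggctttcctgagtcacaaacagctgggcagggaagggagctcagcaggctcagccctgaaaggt
Cyp1a1: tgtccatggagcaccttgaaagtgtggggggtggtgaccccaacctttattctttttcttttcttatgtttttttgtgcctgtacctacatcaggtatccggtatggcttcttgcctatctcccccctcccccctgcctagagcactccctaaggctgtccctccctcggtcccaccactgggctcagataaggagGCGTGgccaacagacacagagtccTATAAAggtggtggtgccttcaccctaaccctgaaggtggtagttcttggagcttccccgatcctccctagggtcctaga

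With the start site as position 0, the Cyp3a11 window held AGGTCA from -162 to -157, CAAAGTCCA from -109 to -101 and TATAAA from -234 to -229. The Cyp1a1 window held GCGTG from -54 to -50 and TATAAA from -30 to -25. The Cyp3a13 window held none of the 4 motifs, with 0 matches to each. Of 32851 RefSeq windows of this length, 16.3% held AGGTCA, 0.475% CAAAGTCCA, 32.4% GCGTG and 13.6% TATAAA. In the windows of the other genes, AGGTCA was matched in Cyp3a25, which was under the floor on all arrays, and in Abcg2, which was over it on all of them. GCGTG was matched in Cyp2b10, also under the floor, and in 1 of the 3 windows of Abcg2. TATAAA was matched in Cyp2c55 and Abcg2, and the windows of Abcb1a, Abcb1b and Nr1i2 held none of the motifs. The motifs were chosen after these windows had been read. A match is a string of letters and not a bound site.

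Cyp3a11, the chief Cyp3a enzyme of mouse liver and gut and a classic target of PXR, was lower on all 3 arrays of stimulated cells. Its signal was 135 with both factors, 133 with IL-17A, 282 with FGF2 and 485 in untreated cells. The combined and IL-17A arrays were alike and low, and the FGF2 array lay between these and the untreated array. Against untreated cells the signal was 3.59-fold lower with both factors, 3.65-fold lower with IL-17A and 1.72-fold lower with FGF2. These are log2 ratios of -1.84, -1.87 and -0.78, against a yardstick SD of 0.30. With the floor at the 75th percentile of signals, nearly all of the gene's range was raised to it, and the ratio was -0.06 with both factors and with IL-17A.

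Cyp3a13, a second Cyp3a enzyme expressed in the intestine, was also lower on every stimulated array, in a different pattern. Its signal was 3487 with both factors, 5154 with IL-17A, 5265 with FGF2 and 7341 in untreated cells. Either factor alone gave nearly the same signal, and both together gave the lowest. It was 2.11-fold lower with both factors, 1.42-fold lower with IL-17A and 1.39-fold lower with FGF2, and its yardstick SD was 0.094. The annotation gives 1 gene to each of these 2 probe sets. Whether either also detects other Cyp3a transcripts, which are alike in sequence, was not tested.

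The other Cyp3a, Cyp2b and Cyp2c genes followed here, of families that PXR and its relative CAR are known to induce, gave little signal. Cyp2c55, a Cyp2c enzyme known from the large intestine, had signals of 42.9 with both factors, 56.2 with IL-17A, 27.2 with FGF2 and 102 in untreated cells. It was thus measured through the untreated array alone, where it was just over the floor, and was at least 1.14-fold lower on each of the others. With the floor at the 25th percentile of signals, its log2 ratio was -1.25 with both factors, -0.86 with IL-17A and -1.86 with FGF2. Cyp2b10, the standard target of CAR in mouse liver, was under the floor with all 3 of its probe sets on all arrays, at signals of 13.3 to 65.5. Cyp3a25, another Cyp3a enzyme, was under it as well, at 7.64 with both factors, 4.36 with IL-17A, 13.3 with FGF2 and 1.29 in untreated cells. No fold is given for these 2 genes.

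Nr1i2, the gene of PXR itself, lay at the edge of the floor. Its brighter probe set had signals of 65.9 with both factors, 54.4 with IL-17A, 92.7 with FGF2 and 96.2 in untreated cells. The second had 21.3, 56.2, 52.7 and 90.4 on the same arrays in the same order. Both probe sets were over the floor in untreated cells and under it with IL-17A, with and without FGF2, and they differed in the FGF2 array, where only the brighter was over it. The folds against untreated cells are lower bounds of 1.07 with both factors and with IL-17A.

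Cyp1a1, the P450 most strongly switched on by AhR, went the other way from the Cyp3a genes. Its signal was 364 with both factors, 193 with IL-17A, 271 with FGF2 and 216 in untreated cells. The combined array stood above the other 3, and IL-17A alone gave the lowest signal. Against untreated cells it was 1.69-fold higher with both factors (log2 ratio 0.76), 1.12-fold lower with IL-17A (-0.16) and 1.25-fold higher with FGF2 (0.33). The yardstick SD for its brightness was 0.30, so the ratio of IL-17A alone was within it.

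**Figure D1:**
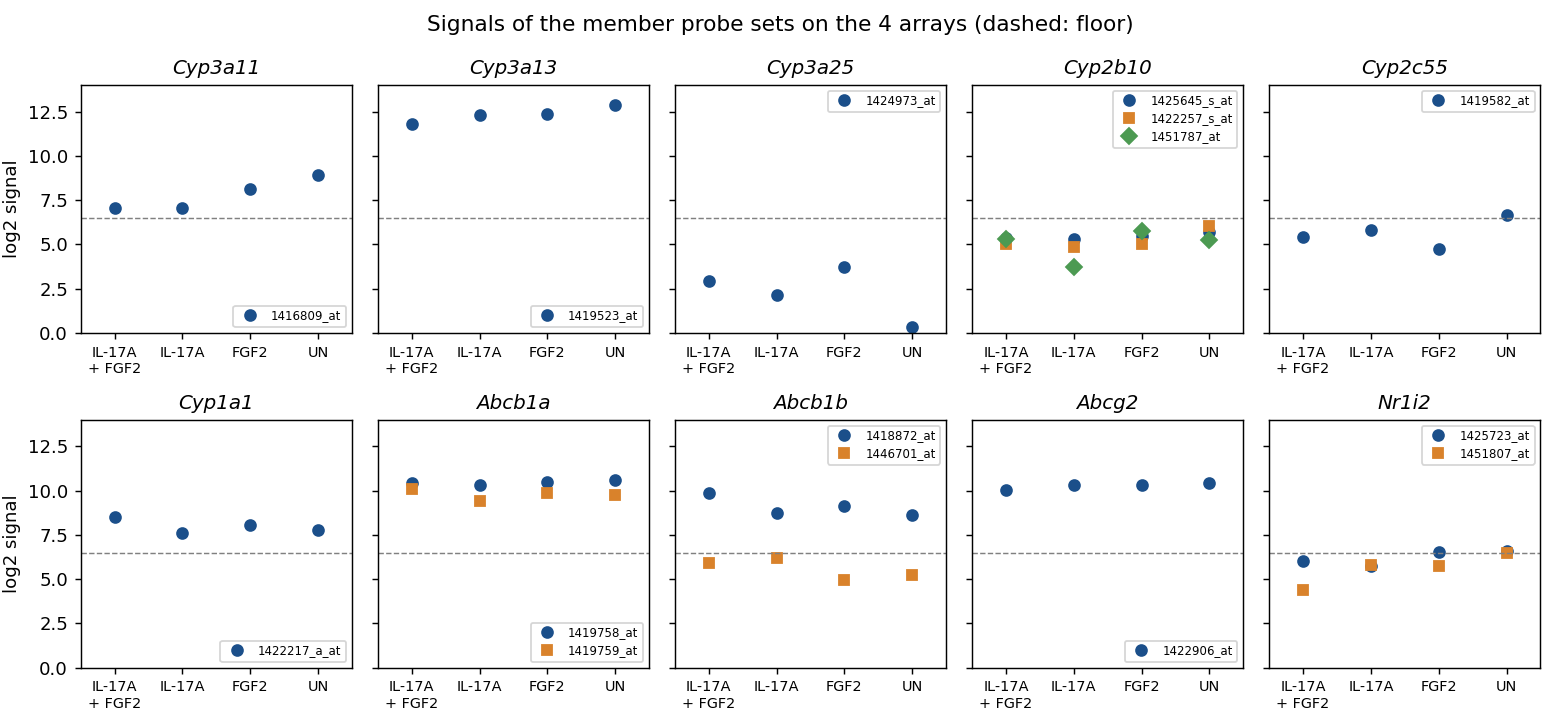
Log2 signal of each of the 15 probe sets of the 10 genes (vertical axis) on the arrays of IL-17A plus FGF2, IL-17A, FGF2 and untreated cells (UN); each point is 1 probe set on 1 array, and the dashed line is the floor at 6.49. Cyp3a25 and Cyp2b10 lie under the floor on all arrays, while Cyp3a11 and Cyp3a13 are highest in untreated cells and Abcb1b and Cyp1a1 on the combined array.

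Among the pumps, Abcb1b, 1 of the 2 P-glycoprotein genes, was highest when both factors were present. Its brighter probe set had signals of 938 with both factors, 433 with IL-17A, 552 with FGF2 and 397 in untreated cells. Only the combined array was more than 2-fold over untreated cells, at 2.36-fold (log2 ratio 1.24), against 1.09-fold with IL-17A (0.13) and 1.39-fold with FGF2 (0.48). The yardstick SD was 0.21. Its other probe set, tied by the annotation to an expressed sequence tag, stayed under the floor at 59.7, 74.4, 30.6 and 38.2 on the same arrays in the same order. With the mean of both probe sets, the log2 ratio of both factors against untreated cells was 0.62.

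Abcb1a, the other P-glycoprotein gene, was read by 2 probe sets that were over the floor on every array. They disagreed in direction on the combined array and on the FGF2 array. The brighter had signals of 1354 with both factors, 1253 with IL-17A, 1416 with FGF2 and 1560 in untreated cells, so it was highest in untreated cells. The dimmer had 1102 with both factors, 684 with IL-17A, 931 with FGF2 and 866 in untreated cells, so it was highest on the combined array. Against untreated cells, both probe sets were lower with IL-17A alone, 1.24- and 1.27-fold. With both factors the brighter was 1.15-fold lower and the dimmer 1.27-fold higher, so no direction can be given for Abcb1a there. With FGF2 alone the brighter was 1.10-fold lower and the dimmer 1.07-fold higher, so none can be given there either. The annotation ties both probe sets to the same transcript sequence.

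Abcg2, the breast cancer resistance protein pump, varied by no more than 1.32-fold between the arrays. Its signal was 1046 with both factors, 1284 with IL-17A, 1258 with FGF2 and 1377 in untreated cells. The order followed that of Cyp3a13 in its extremes, with untreated cells highest and the combined array lowest. It was 1.32-fold lower with both factors (log2 ratio -0.40), 1.07-fold lower with IL-17A (-0.10) and 1.09-fold lower with FGF2 (-0.13). The yardstick SD was 0.13, so both single-factor ratios were within it and the ratio with both factors was beyond it.

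**Figure D2:**
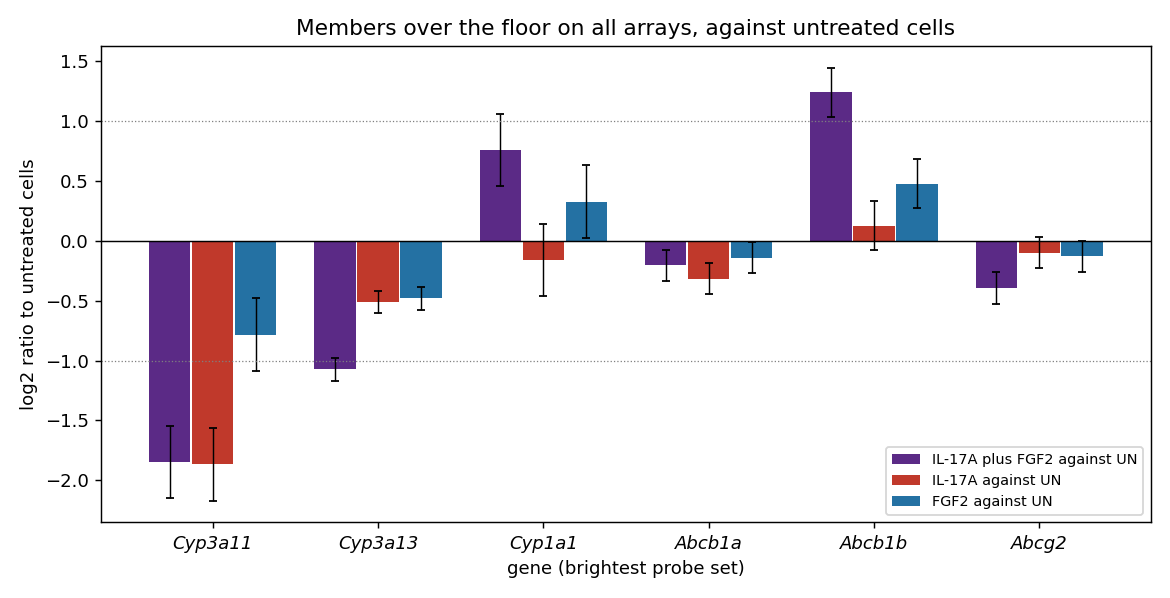
Log2 ratio to untreated cells (vertical axis) of the 6 genes over the floor on every array, with both factors, IL-17A alone and FGF2 alone; bars start at 0, error bars are the yardstick SD for genes of that brightness (not replicates), and dotted lines mark 2-fold. Cyp3a11 and Cyp3a13 are past 2-fold below untreated cells and Abcb1b past 2-fold above them with both factors.

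Counted over the 8 measured genes, 2 were at least 2-fold lower with both factors than in untreated cells (Cyp3a11 and Cyp3a13) and 1 at least 2-fold higher (Abcb1b). Of all 12258 measured genes, 1.73% were that much lower and 0.906% that much higher. With IL-17A alone, 1 of 8 was at least 2-fold lower (Cyp3a11) and 0 higher, where 0.228% and 0.375% of all measured genes were. With FGF2 alone, 0 of 8 were in either class, where 0.963% and 0.473% of all measured genes were. The median log2 ratio of the 8 genes was -0.19 with both factors, -0.17 with IL-17A and -0.14 with FGF2, and that of all measured genes 0.00, -0.012 and -0.0094. Since the genes were picked with these values known, nothing is read from the shares. Cyp2c55 counts as measured through the untreated array alone and could only be lower. Its log2 ratio of -0.18, taken from the floor, helped to set the medians with both factors and with IL-17A.

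Each factor could also be read in the presence of the other, from the pair of arrays that its first reading did not use. IL-17A added to FGF2 went with a 2.09-fold lower Cyp3a11 signal (log2 ratio -1.06) and a 1.51-fold lower Cyp3a13 signal (-0.59). Under quantile normalization the Cyp3a11 ratio was -0.99, just under 2-fold. In that pair 1 of the 8 genes was at least 2-fold lower, where 0.269% of all measured genes were, and 0 were higher, where 0.367% were. IL-17A was therefore followed by lower signals of both Cyp3a genes in both readings. Abcb1b was 1.70-fold higher when IL-17A was added to FGF2, and 1.09-fold higher when it was added to untreated cells.

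FGF2 added to IL-17A went with no lower Cyp3a11 signal (log2 ratio 0.024) and with a 1.48-fold lower Cyp3a13 signal (-0.56). Abcb1b was 2.16-fold higher and Cyp1a1 1.89-fold higher in this pair. With the floor added to each signal the log2 ratio of Abcb1b was 0.97. Of the 8 genes, 1 was at least 2-fold higher, where 0.547% of all measured genes were, and 0 were lower, where 0.857% were. For Cyp3a13 the readings of FGF2 were alike, 1.39-fold lower without IL-17A and 1.48-fold lower with it.

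The joint response was set against the sum of the single log2 ratios. For Cyp3a13 the sum was -0.99 and the value with both factors -1.07, a difference of -0.084. That departure was larger in size than that of 50.5% of 786 genes of like brightness. For Cyp3a11 the sum was -2.65 and the value -1.84. That sum would put the signal at 77.2, under the floor of 89.8, so a fully additive value could not have been read. The Cyp3a11 signal read with both factors was 135, over the floor. For Abcb1b the value of 1.24 exceeded the sum of 0.60 by 0.64, a departure larger in size than that of 97.3% of 2302 genes of like brightness. For Cyp1a1 the value of 0.76 exceeded the sum of 0.17 by 0.59, larger than in 88.7% of 1931 such genes. The departure of Cyp3a11, 0.81, was larger than in 94.6% of 1838 such genes, and Abcg2 departed by -0.17.

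**Figure D3:**
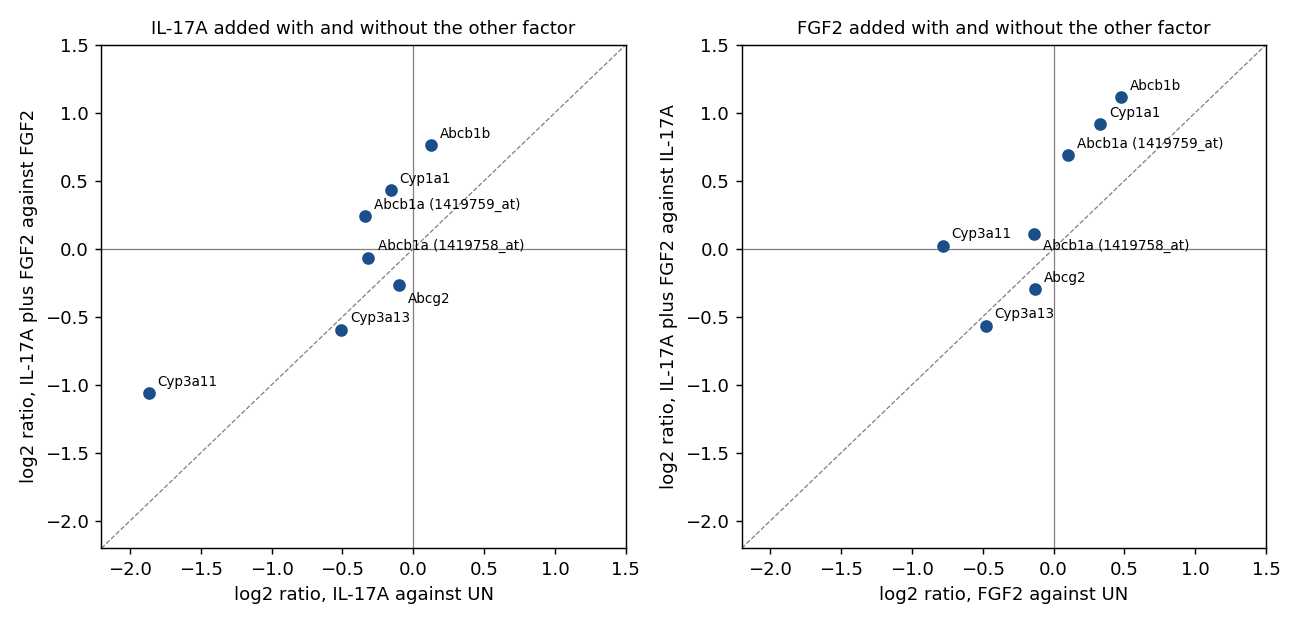
Log2 ratio of adding 1 factor to untreated cells (horizontal axis) against that of adding it in the presence of the other factor (vertical axis), for IL-17A (left) and FGF2 (right); each point is a probe set over the floor on every array, and the dashed line marks equal ratios. Cyp3a13 lies near the line in both panels, Abcb1b and Cyp1a1 above it, and Cyp3a11 at 0.024 on the vertical axis for FGF2.

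Epithelial markers were measured beside these genes. All 15 measured genes of an enterocyte list, the absorptive cells in which gut Cyp3a enzymes and pumps are known to act, were lower than in untreated cells on each of the 3 stimulated arrays, where 49.6% of all measured genes were lower with both factors, 52.8% with IL-17A and 51.6% with FGF2. One of them, Slc2a2, was over the floor in untreated cells alone and could only be lower. Anpep was under the floor with both factors and with FGF2, and Dpp4 with both factors and with IL-17A. Slc5a1 and Slc10a2 were under it with both factors. The ratios of these genes on those arrays were taken from the floor. The median log2 ratio of the 15 genes was -1.36 with both factors, -0.92 with IL-17A and -0.49 with FGF2. In the same order, 12, 6 and 2 of them were at least 2-fold lower, where 1.73%, 0.228% and 0.963% of all measured genes were. The summed signal of the list was 10828 with both factors, 14483 with IL-17A, 21971 with FGF2 and 28888 in untreated cells. None of its genes had a log2 signal of 0. The list includes Apoa1, the main protein of high-density lipoprotein, which was 2.57-fold lower with both factors, and Apoa4 (2.12-fold lower). The general epithelial list had medians of 0.033, -0.011 and 0.098 in these comparisons over 11 genes. With both factors 7 of these were higher and 4 lower, where 48.2% and 49.6% of all measured genes were. The keratin genes Krt8 and Krt18, the 2 brightest of the list, were 1.14- and 1.13-fold higher with both factors. Vil1 and Cdx1, named after their values were seen, were 1.62- and 1.54-fold lower. In such bulk RNA fewer enterocytes and less RNA per enterocyte cannot be told apart, and the part of the enterocyte genes in the Cyp3a values was not tested.

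Markers of other cell types were measured in the cultures as well. The endothelial list, from vessels, where Abcb1a and Abcg2 are also known to be expressed, had a median log2 ratio of 0.48 with both factors, -0.11 with IL-17A and 0.37 with FGF2 over 10 genes. Its summed signal was 12130 with both factors, 7981 with IL-17A, 11400 with FGF2 and 8523 in untreated cells. That sum was highest on the combined array, as was the Abcb1b signal, and its part in it was not tested. The 9 macrophage genes summed to 6054 with both factors, 4441 with IL-17A, 5207 with FGF2 and 3838 in untreated cells. None of them had a log2 signal of 0. Cd14, which encodes a co-receptor for lipopolysaccharide, made up much of the differences, at 3081, 1318, 2640 and 862 on these arrays. Without it, a step chosen after its values were seen, the other 6 measured genes summed to 2828, 3017, 2466 and 2876, so the combined array was no longer highest. The median log2 ratio of the 7 measured macrophage genes was 0.0050 with both factors, 0.14 with IL-17A and -0.12 with FGF2. Of 5 matched hepatocyte genes, 2 were measured, each on 1 array, and the list summed to 215 to 306 over the arrays.

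By a likeness rule over the 4 arrays, the genes nearest to Cyp3a11, which had the widest range of the 10, were Guca2b, Apob, Rab30, Acot12 and Fabp2. Likeness was the distance between log2 profiles centred on their mean, over 10636 genes above the floor on every array, and it was 0.29 for Guca2b and Apob, 0.45 for Rab30, 0.48 for Acot12 and 0.56 for Fabp2. Guca2b, which encodes the gut peptide uroguanylin, had signals of 486 with both factors, 538 with IL-17A, 1023 with FGF2 and 1479 in untreated cells. Apob, the structural protein of chylomicrons, had 826, 998, 1827 and 2765 on these arrays. Acot12, an acetyl-CoA hydrolase, was 2.44-fold lower with both factors, 2.41-fold lower with IL-17A and 1.22-fold lower with FGF2. Apob and Fabp2 belong to the enterocyte list. A likeness over 4 points describes these arrays only.

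Other P450 genes of families 1 to 3 had another order of arrays than Cyp3a11. Of 35 genes with a probe set, 6 were measured, and all 6 were lower with both factors and with FGF2 than in untreated cells, at medians of -0.63 and -0.76. Among them, Cyp2j9 was under the floor on both of these arrays, so its ratios there were taken from the floor. With IL-17A 3 of the 6 were lower and 3 higher (median -0.020). Of all measured genes, 49.6% were lower with both factors, 52.8% with IL-17A and 51.6% with FGF2. Several marker lists had the same pattern of a lower median with both factors and with FGF2 and a median near 0 with IL-17A. The fibroblast list had medians of -0.59 with both factors, 0.030 with IL-17A and -0.52 with FGF2 over 10 genes. The smooth muscle list had -0.53, 0.054 and -0.74 over 7 genes, the goblet list -0.60, -0.10 and -0.50 over 8, and the Paneth list -0.31, -0.043 and -0.41 over 4, in the same order. Their summed signals were 69323 with both factors, 81483 with IL-17A, 66403 with FGF2 and 78002 in untreated cells for fibroblasts, and 23309, 35262, 25132 and 34476 for smooth muscle. The goblet list summed to 33678, 38967, 34369 and 43090, and the Paneth list to 3182, 3436, 3112 and 3930. None of the genes of these marker lists had a log2 signal of 0. The part of these cells in the P450 values was not tested. Cyp2d10 had signals of 168 with both factors, 491 with IL-17A, 199 with FGF2 and 390 in untreated cells. It was the 1 member of the P450 list at least 2-fold lower with both factors, where 1.73% of all measured genes were. Cyp1b1, the AhR-responsive P450 known from stromal cells and named here after its values were seen, had 498, 1031, 418 and 836 on the same arrays. It was thus lower with both factors, where Cyp1a1 was higher.

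Enzymes that attach sugar, sulfate or glutathione to drugs had lower medians with both factors and with FGF2. Of 24 measured conjugating enzymes, 18 were lower and 6 higher with both factors (median -0.53), 16 and 8 with IL-17A (-0.18), and 19 and 5 with FGF2 (-0.48). The shares lower among all measured genes were 49.6%, 52.8% and 51.6% in these comparisons. All 5 that were at least 2-fold lower with both factors were glucuronosyl- or sulfotransferase genes. Of all measured genes, 1.73% were that much lower. Ugt2b34 was 3.58-fold lower (signals of 145 with both factors and 518 in untreated cells) and Sult1d1 3.16-fold lower (559 and 1769). Sult1b1 was 2.35-fold, Sult2b1 2.18-fold and Sult1a1 at least 2.09-fold lower. Sult2b1 was lower with both factors than with either alone, at 177 against 367 with IL-17A, 344 with FGF2 and 385 in untreated cells. Of the 24 with IL-17A, 0 were at least 2-fold different from untreated cells, where 0.228% of all measured genes were lower and 0.375% higher. The Ugt1a genes share probe sets with several symbols and were not analysed here.

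Of 6 measured hydrolases, all were lower with both factors (median -0.29), where 49.6% of all measured genes were lower. Ces2a and Ces2e were under the floor on that array, so their ratios were taken from the floor. Ephx1, the microsomal epoxide hydrolase, was 1.89-fold lower with both factors, 1.26-fold lower with IL-17A and 2.05-fold lower with FGF2. The genes that pass electrons to P450 enzymes differed little, with medians of 0.017, 0.014 and -0.049 over 6 genes with both factors, IL-17A and FGF2. The reductase gene Por was not analysed here.

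The other drug efflux pumps had a median of 0.00 with both factors, 0.22 with IL-17A and 0.088 with FGF2 over 9 measured genes. In these comparisons 0 of them were at least 2-fold different from untreated cells. In the same order, 1.73%, 0.228% and 0.963% of all measured genes were that much lower, and 0.906%, 0.375% and 0.473% higher. The largest ratio of both factors to untreated cells in this list was that of Abcc4 (log2 ratio 0.84), named after its values were seen, an exporter of cyclic nucleotides and prostaglandins. Its signals were 2154 with both factors, 1481 with IL-17A, 1774 with FGF2 and 1203 in untreated cells. The combined array was highest and the untreated array lowest for this gene, as for Abcb1b.

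Among 13 measured sensors and partners, 9 were lower and 3 higher with both factors, where 49.6% of all measured genes were lower and 48.2% higher. The list's median of -0.21 is the value of Ppara, which was over the floor in untreated cells alone and could only be lower. Nr1h4, which encodes the bile acid receptor FXR, was 3.55-fold lower with both factors, 1.42-fold lower with IL-17A and 2.47-fold lower with FGF2, at signals of 225, 563, 324 and, in untreated cells, 800. It was the only one at least 2-fold lower with both factors, where 1.73% of all measured genes were. Named after their values were seen, Hnf4a, whose product drives enterocyte and liver genes, had signals of 1644 with both factors, 1947 with IL-17A, 1807 with FGF2 and 2461 in untreated cells. Ahr had 1047, 1107, 1135 and 1160 on these arrays. Of 4 measured AhR target genes, 3 were lower with both factors and Nqo1, a quinone reductase gene, higher (log2 ratio 0.40), while Cyp1a1 was at 0.76.

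**Figure D4:**
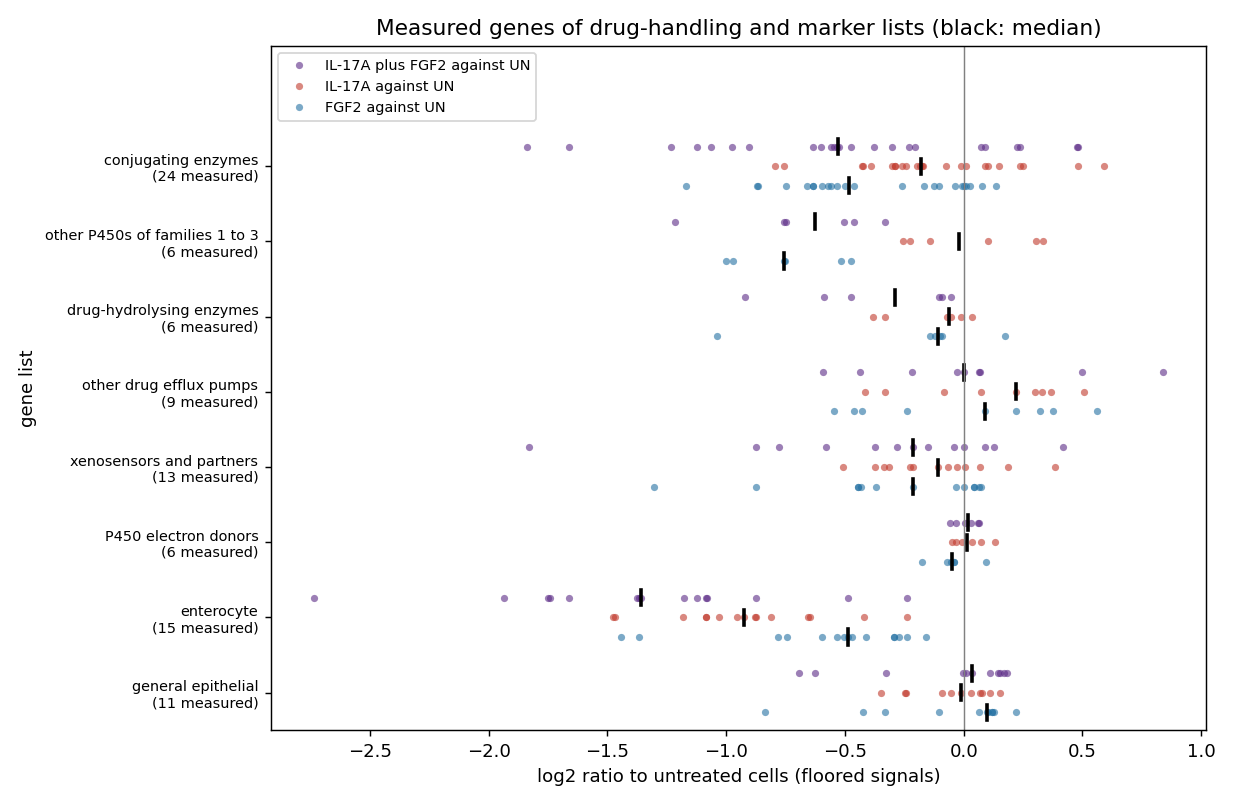
Log2 ratio to untreated cells (horizontal axis) of each measured gene of 6 drug-handling lists and of the enterocyte and general epithelial lists, with both factors, IL-17A alone and FGF2 alone; each point is 1 gene and black marks are medians. All 15 enterocyte genes lie below 0 in each comparison, the 6 other P450 genes do so with both factors and with FGF2, and the electron donors lie close to 0.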

How the data were processed

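Total RNA of 4 samples was labelled by priming from the 3′ end and hybridised to Affymetrix arrays, per the labels' protocols. The authors summarised probes with MAS5, per the submitters' processing notes, in a version not given in the sources used here. What they deposited is 1 log2 signal for each probe set on each array. Their antilogs had a trimmed mean (2% off each end) of 500.003 on every array, so each array had been scaled as a whole. MAS5 subtracts mismatch signals, which makes dim values noisy.

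Of 45101 probe sets, 64 controls were left out, 932 had several symbols, 9160 had none, and 34945 had 1, taken from the platform annotation (34741 matched a GRCm38.p6 gene, 0 changed). A gene was given by its brightest probe set (highest average over the arrays), and signals under the median of all signals were raised to it. Ratios and counts at 2-fold were computed with Python 3.11.15, numpy 2.4.6 and pandas 2.3.3, and tested on simulated arrays. The yardstick SD of a log2 ratio is the root mean square of log2 (both − IL-17A − FGF2 + untreated) divided by the square root of 2, over genes above the floor on all arrays. With 1 array per group no test was run: each difference is a single ratio, and an additive fit of both factors, which would leave 1 residual degree of freedom, was not made. The number of arrays limits the precision.

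The genes and lists were chosen with earlier results of these data known. Named genes were all 10 members, up to 6 genes per drug-handling list that were at least 2-fold different from untreated cells, the 2 brightest genes of a marker list, and the 5 genes nearest to the member of widest range. Clone and model symbols were left out of the last. Lists of enteroendocrine (8 genes) and glial markers (6 genes) were also measured, with medians of -0.10 and 0.23 for both factors against untreated cells. Of 7 matched lymphocyte markers only 1, Cd8a, was measured, with a log2 ratio of 0.22 in that comparison. Its signals were 113 with both factors, 97.4 with IL-17A, 53.3 with FGF2 and 97.0 in untreated cells. The other lymphocyte markers were under the floor on every array, so nothing is read from that list.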

Additional observations from a re-analysis of the deposited data

Results flagged for a closer look

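In 4 probe sets over the floor on every array, adding a factor went with opposite directions depending on whether the other factor was present. The difference was not tested, since each reading rests on 1 pair of arrays. For Cyp3a11, FGF2 gave a log2 ratio of 0.024 in cells with IL-17A and -0.78 in cells without it. For Cyp1a1, IL-17A gave 0.43 in cells with FGF2 and -0.16 in cells without it. For Abcb1a, IL-17A gave 0.24 in cells with FGF2 and -0.34 in cells without it in its dimmer probe set. In its brighter probe set, FGF2 gave 0.11 in cells with IL-17A and -0.14 in cells without it. Of these ratios, the 0.024 of Cyp3a11 and the -0.16 of Cyp1a1 are within the yardstick SD of 0.30, and the 0.11 of the brighter Abcb1a probe set is within that of 0.13. Neither change of direction was seen in the other Abcb1a probe set. For IL-17A the brighter probe set gave -0.064 in cells with FGF2 and -0.32 in cells without it. For FGF2 the dimmer gave 0.69 in cells with IL-17A and 0.10 in cells without it.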

How the results depend on the processing

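Over the 10 counts of genes at least 2-fold different, the number depended on the threshold and the floor. The shares of all measured genes were computed at 2-fold and the main floor alone. Nothing beyond this dependence is therefore read from the counts below. At 1.5-fold, 2 genes were higher with both factors than in untreated cells, 2 higher than with IL-17A, 1 higher and 2 lower than with FGF2, and 1 was lower with FGF2 than in untreated cells. At 3-fold, 1 was lower and 0 higher with both factors than in untreated cells, 0 higher than with IL-17A and 0 lower than with FGF2. With the floor at the 75th percentile, 1 was lower with both factors and 0 with IL-17A than in untreated cells, and 0 with both factors than with FGF2. Under that floor Cyp3a11 was at -0.06 with both factors against untreated cells, and all Cyp1a1 ratios were 0.00, since their signals were raised to it. With the floor at the 25th percentile, 9 genes were measured, and 3 were lower with both factors and 1 with FGF2 than in untreated cells. The added gene in both was Cyp2c55, at -1.25 with both factors and -1.86 with FGF2. With the floor added to each signal, 0 were higher with both factors than with IL-17A and 0 lower than with FGF2. Quantile normalization left 0 lower with both factors than with FGF2, where Cyp3a11 had a log2 ratio of -0.99. When probe sets of a gene were averaged, 0 were higher with both factors, either than in untreated cells or than with IL-17A, because the dim probe set of Abcb1b entered its mean. Median centring and leaving out probe sets whose ID ends in _s_at, _x_at or _a_at moved none of the 10 counts. The latter step left Cyp1a1, read by an _a_at probe set alone, without a value. Of 275 alternative values of 40 ratios, 245 moved by less than the yardstick SD, 30 by more, and 0 ratios past 2-fold turned direction. The 2 scalings moved the median of all measured genes by at most 0.036. No paired analysis was possible because each group has 1 array.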
